A study of Homo sapiens with 32 samples.

Results

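The stress keratins KRT6A, KRT6B, KRT6C, KRT16 and KRT17 and the epidermal suprabasal keratins KRT1, KRT10, KRT2, KRT23 and KRT24 were followed in EPC2 cells, an hTERT-immortalised line of human esophageal epithelium. They were chosen as a list of gene symbols, at a time when earlier results of these data were known. All 10 were found among the 19345 genes of the table. The line was grown as monolayers, harvested on day 0 before seeding (10 libraries), and as spheroids in Matrigel. Spheroids were harvested on day 3 (D3, 9 libraries), on day 11 after IL-13 at 20 ng/ml from day 3 (6 libraries), and on day 11 untreated (7 libraries). All groups were wild type. Each spheroid culture was started from 40000 cells in 20 µl of Matrigel with 0.6 mM CaCl2 in the medium. The model is 1 immortalised epithelial line grown without other cell types. The cells came from 2 independent experiments, which the labels call batches. The labels do not say whether libraries of 1 batch were separate cultures, so p-values measure the spread between these libraries, which may be technical.

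Keratins are the intermediate filament proteins of epithelia, and each filament pairs a type II keratin with a type I keratin. Basal cells of stratified epithelia carry KRT5 with KRT14, the suprabasal cells of the esophagus carry KRT4 with KRT13, and the suprabasal cells of the epidermis carry KRT1 with KRT10. KRT6A, KRT6B and KRT6C, which are type II, and KRT16 and KRT17, which are type I, are known as stress or wound keratins, since interfollicular epidermis carries little of them until it is injured or inflamed. KRT2 is the type II keratin of the uppermost living epidermal layers, and KRT24 is a type I keratin known from differentiating keratinocytes. KRT23 is a further type I keratin. IL-13 is the type 2 cytokine best known in the esophagus for its part in eosinophilic esophagitis.

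The type II members lie on chromosome 12 and the type I members on chromosome 17, all on the minus strand of hg38. KRT6B spans chr12:52446651-52452126, KRT6C chr12:52468516-52473785 and KRT6A chr12:52487174-52493257, so the 3 genes are neighbours. Their coding sequences are each 1695 bases long in GENCODE 29. KRT6A is 97.5% identical to KRT6B and 97.9% identical to KRT6C, and KRT6B is 98.5% identical to KRT6C. Of all stretches of 75 bases in the coding sequence, 35.0% for KRT6A, 46.2% for KRT6B and 57.2% for KRT6C also occur in another gene, and such a read cannot be placed by sequence alone. Levels within the KRT6 group are therefore uncertain. The stretch of 90 bases at coding positions 656 to 745, in which the 3 genes differ most, is shown because such places tell them apart. Capitals mark the positions at which they differ. The KRT6A stretch lies at chr12:52491532-52491621, the KRT6B stretch at chr12:52450416-52450505 and the KRT6C stretch at chr12:52472076-52472165, all read from the minus strand.
KRT6A: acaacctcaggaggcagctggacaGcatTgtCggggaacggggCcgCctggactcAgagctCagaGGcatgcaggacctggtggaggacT
KRT6B: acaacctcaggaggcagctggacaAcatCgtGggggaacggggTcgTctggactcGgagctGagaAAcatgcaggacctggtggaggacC
KRT6C: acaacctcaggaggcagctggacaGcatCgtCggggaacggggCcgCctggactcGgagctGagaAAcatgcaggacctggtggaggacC
In this stretch KRT6B differs from KRT6A at 10 positions and KRT6C differs from KRT6A at 6. KRT16 shares 11.3% of its 75-base stretches with other genes, of which the pseudogene KRT16P3 has most, at 6.9%. KRT17 shares 3.7%, with the pseudogene KRT17P3 at 3.1%. KRT16 also shares an unbroken run of 158 bases with KRT14, so its level is uncertain where KRT14 is far higher. KRT1, KRT10, KRT2, KRT23 and KRT24 share 0.0%. KRT10 overlaps TMEM99 and KRT23 overlaps AC004231.1 on the opposite strand. The handling of strand is not given in the sources used here, so reads of these partners cannot be told apart from those of the keratins.

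RefSeq promoters (build GRCh38.p14) were matched for KRT10, KRT24 and KRT2. The 250 bases before the start of KRT10 and of KRT24 are shown because these were the only tested members whose libraries with and without IL-13 did not overlap, and they lay in opposite directions. Capitals mark matches to 4 motifs searched on both strands, which were the TATA box letters TATAAA, the AP-1 letters TGANTCA, the STAT letters TTCNNNGAA and the KLF letters CACCC. The KRT10 stretch is chr17:40822615-40822864 and the KRT24 stretch is chr17:40703753-40704002, both on the minus strand.
KRT10: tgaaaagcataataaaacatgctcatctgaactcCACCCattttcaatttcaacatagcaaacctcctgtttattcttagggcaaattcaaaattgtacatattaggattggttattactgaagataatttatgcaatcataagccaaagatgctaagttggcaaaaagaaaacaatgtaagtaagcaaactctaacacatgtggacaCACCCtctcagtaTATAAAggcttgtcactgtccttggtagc
KRT24: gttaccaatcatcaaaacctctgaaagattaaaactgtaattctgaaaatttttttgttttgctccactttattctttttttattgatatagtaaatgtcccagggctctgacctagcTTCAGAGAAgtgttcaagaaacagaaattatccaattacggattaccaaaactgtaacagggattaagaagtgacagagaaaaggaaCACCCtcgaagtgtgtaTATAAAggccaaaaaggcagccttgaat
Both hold TATAAA, at -29 to -24 in KRT10 and at -28 to -23 in KRT24, a match found in 10.7% of 35116 promoters. CACCC, found in 54.7% of promoters, stands at -216 to -212 and at -42 to -38 in KRT10 and at -45 to -41 in KRT24. TTCNNNGAA, found in 6.57% of promoters, stands at -132 to -124 in KRT24 and was not matched in the KRT10 window. TGANTCA, also found in 6.57% of promoters, was matched in neither window. No motif overlapped another. A match of letters is a description and not a binding site.

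Values are in TPM, a transcript level scaled to gene length and to the total of each library, so levels of different genes can be set side by side. The number of reads is unknown. Changes are differences in log2(TPM + 1) from limma with a batch term, adjusted over the 12221 genes that reached 1 TPM in at least 6 libraries, and this scale understates the change of low genes. Of the 10 keratins, 9 were tested and KRT2 was too low. In bulk RNA, fewer cells that carry a transcript and less of it per cell cannot be told apart.

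Of 8 squamous markers, TP63, KRT5, KRT14, KRT15, SOX2 and PAX9 reached 1 TPM in every group. KRT4 was at 0 in all 10 monolayers and KRT13 was at most at 0.4 TPM there, while both reached 1 TPM in every spheroid group. Of 10 columnar, goblet and ciliated markers, GATA6 alone reached 1 TPM, and MUC2, MUC5AC and GATA4 were at 0 in all libraries. Of 8 fibroblast markers, COL1A2 and COL3A1 were at 0 in all libraries, and the summed level, mostly COL1A1, was 6.1 to 14.0 TPM in monolayers, 8.1 to 30.4 TPM in D3 spheroids, 26.7 to 48.0 TPM with IL-13 and 58.2 to 78.2 TPM in untreated day 11 spheroids. Of 9 immune and endothelial markers, CD68, CD14 and CSF1R reached 1 TPM in every group while PECAM1 was at 0 in all libraries. The 9 together summed to 195.5 to 284.6 TPM in monolayers, 221.5 to 267.1 TPM in D3 spheroids, 435.3 to 559.3 TPM with IL-13 and 521.6 to 587.4 TPM in untreated day 11 spheroids. Of 4 melanocyte markers PMEL alone reached 1 TPM, with TYR at 0 in all libraries. Mitochondrial transcripts took 47.6% ± 2.0 of TPM in monolayers, 47.8% ± 7.3 in D3 spheroids, 21.0% ± 4.8 with IL-13 and 21.9% ± 4.0 in untreated day 11 spheroids (SD). The part of these in the results was not tested, except that the fit was repeated without mitochondrial genes.

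The D3 libraries stood in 2 sets for 8 of the 10 keratins. Libraries 1, 3, 4, 5 and 6 were high and libraries 2, 7, 8 and 9 were low. KRT10 lay at 450.9 to 600.8 TPM in the first and at 45.5 to 72.1 TPM in the second, and KRT1 lay at 45.5 to 62.3 TPM and at 1.1 to 1.5 TPM. The sets followed the batch labels but for library 4, which is labelled batch 1 and lay with batch 2, and library 7, which is labelled batch 2 and lay with batch 1. The sets were seen in the values, so they were not compared by a test. Without libraries 4 and 7, all 9 tested keratins kept their calls over time, and with IL-13 KRT1 and KRT24 passed beside KRT10, at -1.38 (adjusted p = 0.039) and 0.78 (adjusted p = 0.043). Within the IL-13 group, library 1 stood above the others for several keratins. The IL-13 columns carry numbers that tie them to the group and not to a batch, and 1 of the 6 IL-13 samples is of batch 2.

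**Figure D1:**
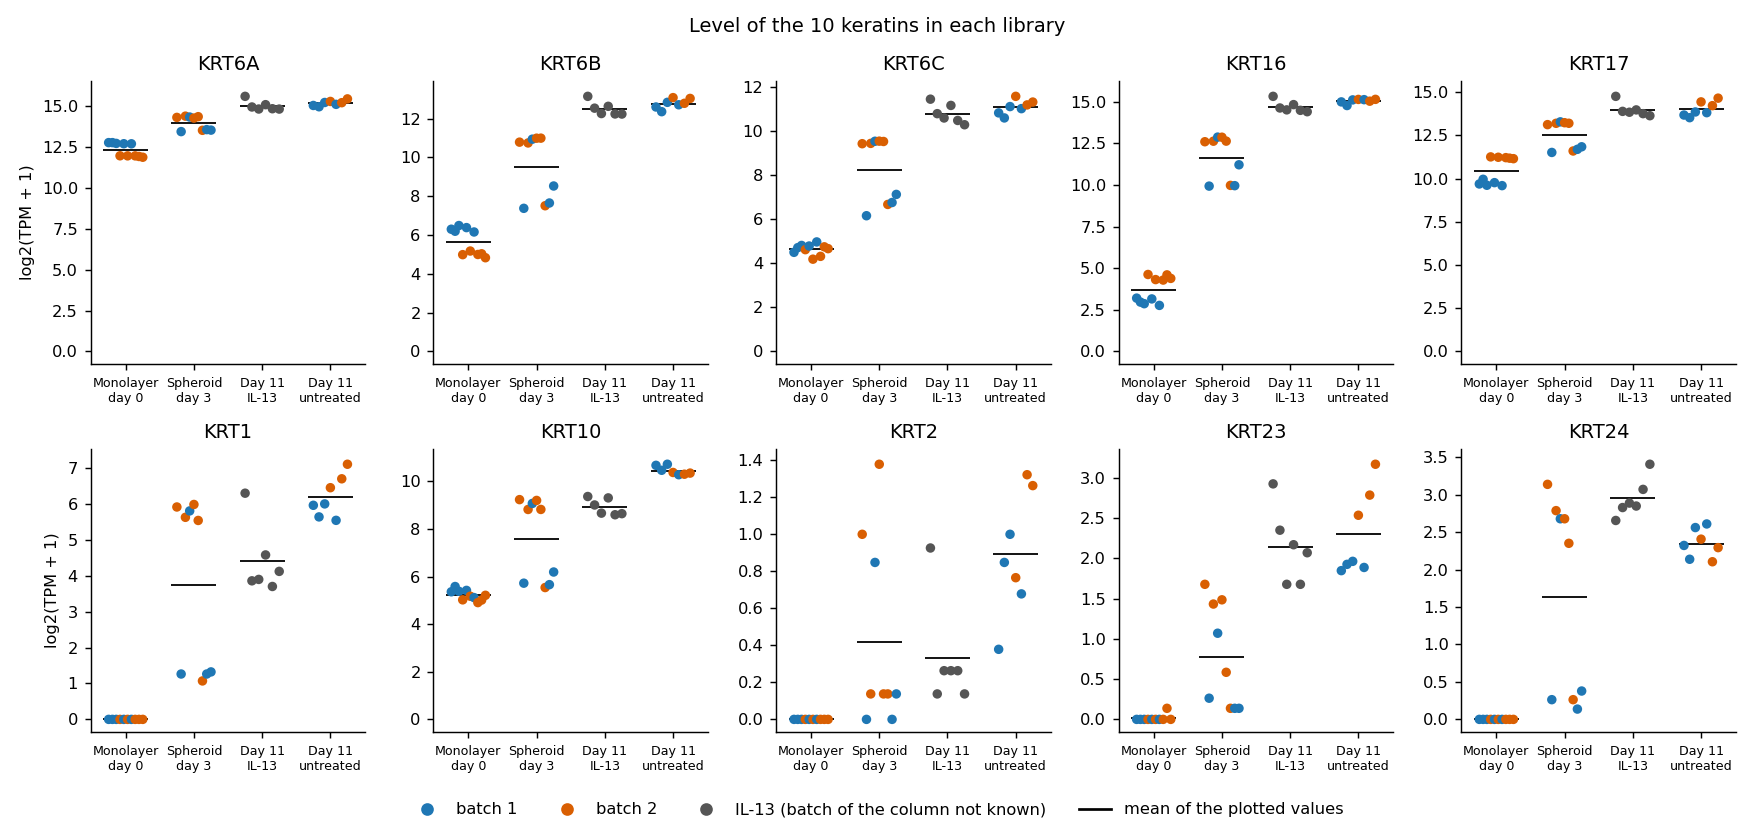
Level of each of the 10 keratins in every library, as log2(TPM + 1) on a vertical axis that differs between panels, by group on the horizontal axis. Points are libraries coloured by batch and bars are means of the plotted values. The 10 monolayers hold 0 TPM of KRT1, KRT2 and KRT24, and the D3 libraries fall into a high and a low set.

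In D3 spheroids against monolayers, the stress keratins rose together, and KRT16 rose most. KRT16 averaged 4329 ± 2913 TPM in D3 spheroids and 13.9 ± 7.5 TPM in monolayers (SD, n = 9 and 10), a 311-fold ratio of means. KRT14, with which KRT16 shares a run of 158 bases, averaged 6485 TPM in monolayers, so this ratio carries the limit on read placement. KRT1 and KRT24 were listed at 0 in all 10 monolayers and were present in all 9 D3 libraries. All 9 tested keratins passed the test as higher, where 81.0% of all genes tested were called, 12.7% as higher and 68.2% as lower. KRT1, KRT23 and KRT24 passed the filter on low values through their spheroid libraries alone, so they had to differ from monolayers. Their calls against monolayers, and any lack of overlap with them, are no support.

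KRT6A, the highest of the 10 by mean TPM in every group, had a lowest, median and highest level of 11098.4, 19693.4 and 21366.3 TPM in D3 spheroids, and of 3746.2, 5302 and 6960.4 TPM in monolayers. Every D3 library lay above every monolayer, and the same held for 7 of the 9 tested keratins, where 44.3% of all genes had groups that did not overlap. KRT1 and KRT24, among the 7, are no support. The difference was 1.64 ± 0.16 on the log2 scale (SE, limma adjusted p = 1.8e-10). KRT6B, mutated in some forms of the nail disorder pachyonychia congenita, had 165.5, 1720.6 and 2042.8 TPM in D3 spheroids and 27.5, 52.9 and 89.0 TPM in monolayers. All D3 libraries were higher, although the 4 low ones stood nearer to the monolayers, and the difference was 3.84 ± 0.44 (adjusted p = 3.7e-09). KRT6C, mutated in some palmoplantar keratodermas, had 70.9, 693.7 and 752.0 TPM in D3 spheroids and 17.3, 24.9 and 30.5 TPM in monolayers. It too was higher in every D3 library, by 3.59 ± 0.36 (adjusted p = 2.1e-10).

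KRT16, the usual partner of KRT6A, had a lowest, median and highest level of 970.7, 6154.3 and 7458.4 TPM in D3 spheroids, and of 5.8, 13.4 and 23.6 TPM in monolayers. The groups lay far apart, by 7.85 ± 0.32 (adjusted p = 1.1e-19). KRT17, the stress keratin known also from hair follicles and basaloid tumours, had 2933.1, 8951.0 and 10005.3 TPM in D3 spheroids and 774.0, 1641 and 2452.7 TPM in monolayers. Its groups were nearer but did not overlap, and the difference was 2.00 ± 0.21 (adjusted p = 3.6e-10). KRT17 was thus already the second most abundant of the 10 in monolayers, while KRT16 stood below KRT6B, KRT10 and KRT6C in mean level there.

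KRT10, the type I keratin of the first suprabasal epidermal layers, had a lowest, median and highest level of 45.5, 450.9 and 600.8 TPM in D3 spheroids, and of 29, 35.6 and 46.9 TPM in monolayers. The lowest D3 library lay within the range of the monolayers, and the 4 low libraries were near it. The difference was 2.34 ± 0.41 (adjusted p = 6.5e-06). KRT1, its type II partner, had 1.1, 45.5 and 62.3 TPM in D3 spheroids and 0 TPM in all monolayers, with an adjusted p of 6.7e-07 and no fold. KRT10 was therefore measured in monolayers in which its usual partner was listed at 0. KRT24 had 0.1, 4.1 and 7.8 TPM in D3 spheroids and 0 TPM in all monolayers (adjusted p = 2.0e-05). KRT23 had 0.1, 0.5 and 2.2 TPM in D3 spheroids and was above 0 in 1 monolayer, at 0.1 TPM (adjusted p = 5.8e-04). KRT2 had 0, 0.1 and 1.6 TPM in D3 spheroids and 0 TPM in all monolayers, and was not tested.

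The change in D3 spheroids was also compared between the batches. The change of KRT6A was 2.23 in batch 2 and 0.99 in batch 1, and the interaction was 1.25 ± 0.21 (limma adjusted p = 5.5e-05). For KRT6B it was 5.20 in batch 2 and 2.32 in batch 1 (interaction adjusted p = 0.0055), and for KRT6C 4.42 and 2.64 (adjusted p = 0.045). These 3 of the 9 tested keratins passed, where 45.2% of all genes did. At an unadjusted p under 0.05, 6 of the 9 did, where the share of all genes is at least 45.2%, since adjustment only raises p-values. The exact share at that threshold is not given here, so no excess can be read from the 6. D3 libraries 4 and 7, whose levels lay with the other batch, bear on these values. Without them the change was larger in batch 2 than in batch 1 by 1.61 for KRT6A, 4.33 for KRT6B, 3.06 for KRT6C, 3.47 for KRT10 and 4.48 for KRT1, against 1.25, 2.88, 1.78, 1.97 and 2.41 with them. Since these libraries were left out for their keratin levels, these differences are a description, with no test. The monolayers already differed between the batches: KRT6A lay at 3746.2 to 3982.8 TPM in batch 2 and at 6621.5 to 6960.4 TPM in batch 1, while KRT17 lay at 2284.0 to 2452.7 TPM in batch 2 and at 774.0 to 998.1 TPM in batch 1. KRT16 followed KRT17, at 18.5 to 23.6 TPM in batch 2 and 5.8 to 8.2 TPM in batch 1. KRT6A was thus lower in monolayers of batch 2 than of batch 1 and KRT17 higher, with narrow ranges in each batch, and KRT6A was above KRT17 in both. The change of KRT24 against monolayers was 2.24 in batch 2 (adjusted p = 1.9e-04) and 0.86 in batch 1 (adjusted p = 0.063).

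In untreated day 11 spheroids against D3 spheroids, 8 of the 9 tested keratins rose further. KRT24 passed close to the threshold with a call that many other settings did not give. KRT23, among the 8, passed the filter only with its day 11 libraries, so its call here is no support. KRT16 came nearer to KRT6A, and the ranges of the 2 genes overlapped on day 11. KRT16 averaged 33636 ± 2930 TPM on day 11 and 4329 ± 2913 TPM on day 3, and KRT6A averaged 37250 ± 4204 TPM on day 11 and 16609 ± 4705 TPM on day 3 (SD, n = 7 and 9). KRT10 averaged 1409 ± 180 TPM on day 11 and 316 ± 253 TPM on day 3. Of all genes tested, 69.3% were called, 33.6% as higher and 35.8% as lower. This comparison shares the D3 libraries with the one before.

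KRT6A had a lowest, median and highest level of 31794.9, 37784.7 and 44393.5 TPM in untreated day 11 spheroids, and every one of these libraries lay above every D3 library. The difference was 1.20 ± 0.18 (adjusted p = 6.8e-07). KRT6B had 5262.4, 7097.5 and 8691.1 TPM and KRT6C had 1563.0, 2236.3 and 3086.5 TPM on day 11, again above all D3 libraries. They rose by 3.29 ± 0.49 and by 2.92 ± 0.39 (adjusted p = 6.1e-07 and 1.3e-07). KRT16 had 27751.6, 35069.0 and 35875.6 TPM on day 11, with no overlap with day 3, and rose by 3.54 ± 0.35 (adjusted p = 3.2e-10). KRT17 had 11826.9, 14882.3 and 25893.6 TPM on day 11, again without overlap, and rose by 1.64 ± 0.23 (adjusted p = 1.8e-07). KRT17 was higher in batch 2, at 19159.6 to 25893.6 TPM, than in batch 1, at 11826.9 to 14882.3 TPM.

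KRT10 had a lowest, median and highest level of 1242.1, 1326.1 and 1685.6 TPM in untreated day 11 spheroids, above all D3 libraries, and rose by 2.92 ± 0.45 (adjusted p = 1.3e-06). KRT1 had 45.6, 63.0 and 136.6 TPM on day 11, which overlapped the high D3 libraries. It rose by 2.58 ± 0.62 (adjusted p = 4.9e-04), with 3.37 in batch 1 (adjusted p = 0.0017) and 1.92 in batch 2 (adjusted p = 0.062). KRT23 had 2.6, 2.9 and 8.0 TPM on day 11, with no overlap with day 3, and rose by 1.59 ± 0.20 (adjusted p = 3.3e-08). Outside day 11 only D3 libraries 1, 3, 4 and 5 reached 1 TPM of KRT23, fewer than the filter asks for. Its call and its lack of overlap with day 3 are therefore no support. KRT24 had 3.3, 4.0 and 5.1 TPM on day 11, inside the D3 range of 0.1 to 7.8 TPM. KRT24 too passed the filter only with day 11 libraries, since outside day 11 only D3 libraries 1, 3, 4, 5 and 6 reached 1 TPM. Its call was near the threshold, at 0.77 ± 0.34 (adjusted p = 0.041). The call was lost with a pseudocount of 5 (adjusted p = 0.12), with no filter (0.056), with no batch term (0.067), with only these 2 groups in the fit (0.11) and with library weights (0.31). It was also lost in 8 of 16 fits that left out 1 library, which were D3 library 2, 7, 8 or 9 or untreated day 11 library 1, 2, 3 or 5, with changes of 0.59 to 0.96 over the 16. Within batches the change was 1.54 in batch 1 (adjusted p = 0.0054) and 0.02 in batch 2 (adjusted p = 0.97). KRT2 stayed low, at 0.3, 0.8 and 1.5 TPM. By mean TPM the order on day 11 was KRT6A, KRT16, KRT17, KRT6B, KRT6C, KRT10, KRT1, KRT23, KRT24 and KRT2, and of neighbours in that order KRT6A and KRT16, KRT6C and KRT10, and KRT23 and KRT24 overlapped in range. Groups did not overlap for 7 of the 9 tested keratins, KRT23 among them, where 38.0% of all genes did not overlap. None of the 9 differed between the batches in this change by limma's interaction test at an adjusted p under 0.05, and 1 did at an unadjusted p under 0.05, where 23.8% of all genes passed the adjusted threshold. Without D3 libraries 4 and 7, again a description with no test, the rise of KRT10 was smaller in batch 2 than in batch 1, with a difference of -3.35, against -1.85 with them, and for KRT16 the difference was -2.21, against -1.04.

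In untreated day 11 spheroids against monolayers the ratio of means was 2418 for KRT16, 130 for KRT6B, 93.0 for KRT6C, 38.5 for KRT10, 10.8 for KRT17 and 6.97 for KRT6A. KRT6B and KRT6C thus stood more than 10 times above KRT6A in this ratio, with the limit on read placement given above. The limit also bears on the ratio of KRT16, through KRT14. The limma differences were 11.39 ± 0.34 for KRT16 (adjusted p = 3.7e-23), 7.13 ± 0.47 for KRT6B and 2.84 ± 0.17 for KRT6A. All 9 tested keratins were higher and none of their groups overlapped. Of all genes, 84.5% were called, 21.0% as higher and 63.5% as lower, and 58.7% did not overlap. KRT1, KRT23 and KRT24 had to differ from monolayers through the filter, as said above, so they are no support here. The change of KRT6A was larger in batch 2 than in batch 1, by 1.02 ± 0.23 (interaction adjusted p = 7.2e-04), and so was that of KRT23, by 0.90 ± 0.34 (adjusted p = 0.032). These were 2 of 9, where 48.3% of all genes differed between batches.

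**Figure D2:**
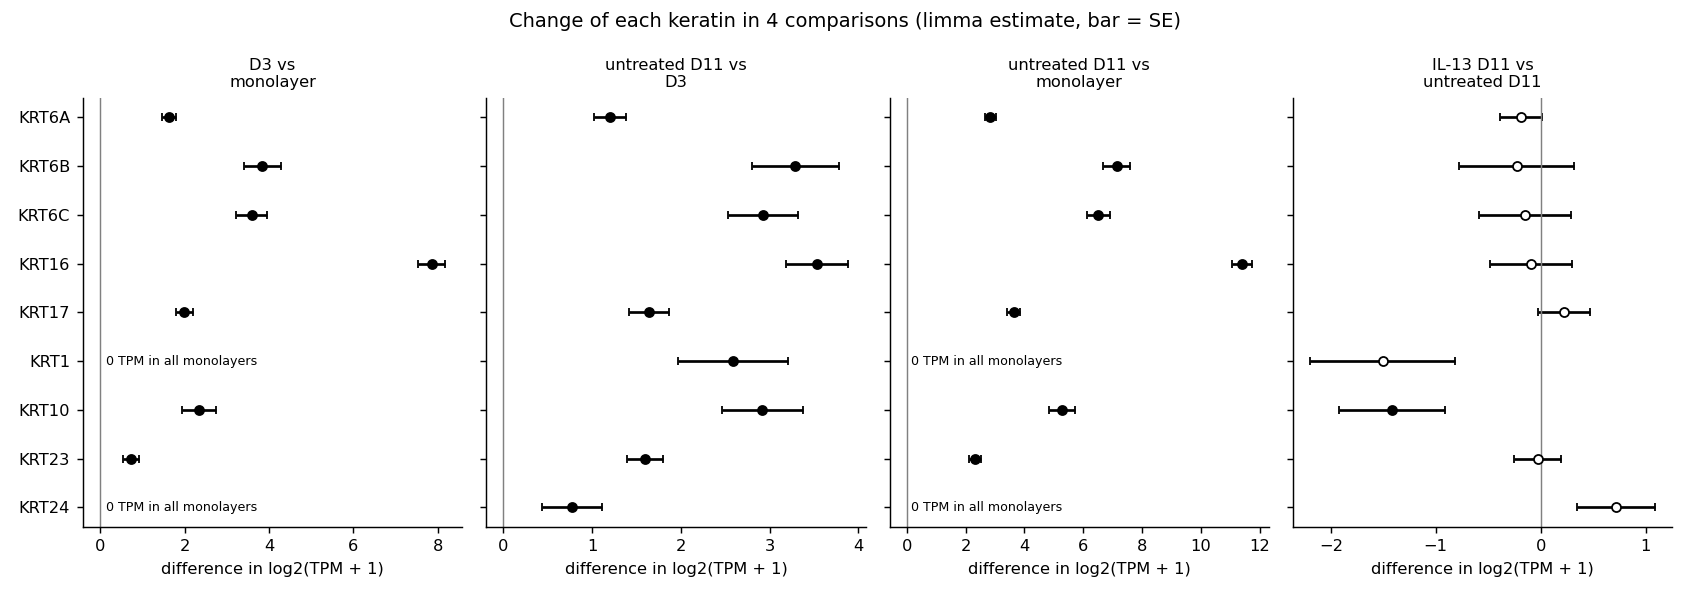
Difference in log2(TPM + 1) of each tested keratin in 4 comparisons, as limma estimates with SE bars, on a horizontal axis that differs between panels. Filled points passed an adjusted p of 0.05 and open points did not. The IL-13 comparison holds 1 filled point, KRT10 at -1.42.

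In day 11 spheroids treated with IL-13 against untreated ones, KRT10 fell and no stress keratin passed limma's test. At an unadjusted p under 0.05, 2 of the 9 tested keratins, KRT10 and KRT1, were lower and none was higher. Of all genes, at least 8.49% were lower and at least 39.2% higher at that threshold, the shares called after adjustment. KRT10 averaged 499 ± 122 TPM with IL-13 and 1409 ± 180 TPM without (SD, n = 6 and 7), a ratio of means of 0.354. It was the only 1 of the 9 tested keratins called, where 47.6% of all genes were called, 8.49% as lower and 39.2% as higher. KRT10 and KRT24 were the 2 tested keratins whose libraries did not overlap, where 13.7% of all genes did not.

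KRT10 had a lowest, median and highest level of 386.4, 459.5 and 658.0 TPM with IL-13, and of 1242.1, 1326.1 and 1685.6 TPM without. All 6 IL-13 libraries lay below all 7 untreated ones, and the difference was -1.42 ± 0.51 (adjusted p = 0.022). KRT1 had 12.0, 15.2 and 77.7 TPM with IL-13 and 45.6, 63.0 and 136.6 TPM without. In 5 of the 6 IL-13 libraries KRT1 lay below every untreated library, at 12.0 to 22.9 TPM, and in library 1 it lay within the untreated range. Its difference of -1.50 ± 0.69 did not pass (adjusted p = 0.073), and without library 1 it passed, at -1.88 ± 0.71 (adjusted p = 0.024). KRT24 had 5.3, 6.3 and 9.6 TPM with IL-13 and 3.3, 4.0 and 5.1 TPM without. Every IL-13 library was higher, by 0.72 ± 0.37 (adjusted p = 0.11), so the call was missed. KRT23 had 2.2, 3.35 and 6.6 TPM with IL-13 and 2.6, 2.9 and 8.0 TPM without, and its ranges overlapped (-0.03 ± 0.22, adjusted p = 0.92). KRT2 had 0.1, 0.2 and 0.9 TPM with IL-13 and 0.3, 0.8 and 1.5 TPM without. It entered the test only with no filter (-0.51 ± 0.18, adjusted p = 0.027) and without mitochondrial genes (-0.60 ± 0.23, adjusted p = 0.044), and passed as lower in both.

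The spread in this fit is shared by all groups, including the split D3 libraries. With only the day 11 groups in the limma fit, the difference of KRT10 was -1.57 ± 0.15 (adjusted p = 5.4e-06). That of KRT1 was -1.54 ± 0.38 (adjusted p = 0.0067) and that of KRT24 0.57 ± 0.13 (adjusted p = 0.0047), so 3 keratins passed. The share of all genes called in this fit is not given here, and it was 47.6% in the main fit. No excess can be read from the 3. Changes within each batch could not be computed. Against the untreated libraries of batch 1 alone, a comparison chosen after seeing the data, KRT10 differed by -1.71 ± 0.60 (adjusted p = 0.030).

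The stress keratins remained the most abundant of the 10 with IL-13. KRT6A had a lowest, median and highest level of 28828, 30376 and 49440.8 TPM with IL-13, and 31794.9, 37784.7 and 44393.5 TPM without. The ranges overlapped, and library 1 was the highest of all 13 (-0.19 ± 0.20, adjusted p = 0.46). KRT16 had 21467.8, 24118.5 and 40669.7 TPM with IL-13 and 27751.6, 35069.0 and 35875.6 TPM without. Here 4 of the 6 IL-13 libraries lay below all untreated ones and library 1 lay above all of them (-0.09 ± 0.39, adjusted p = 0.86). KRT17 had 12801.8, 14979 and 27842.1 TPM with IL-13 and 11826.9, 14882.3 and 25893.6 TPM without, nearly the same range (0.22 ± 0.25, adjusted p = 0.48, and -0.03 with median-of-ratios scaling). KRT6B and KRT6C differed by -0.23 ± 0.54 and -0.15 ± 0.44 (adjusted p = 0.75 and 0.80). A missed threshold does not show that these levels were alike.

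**Figure D3:**
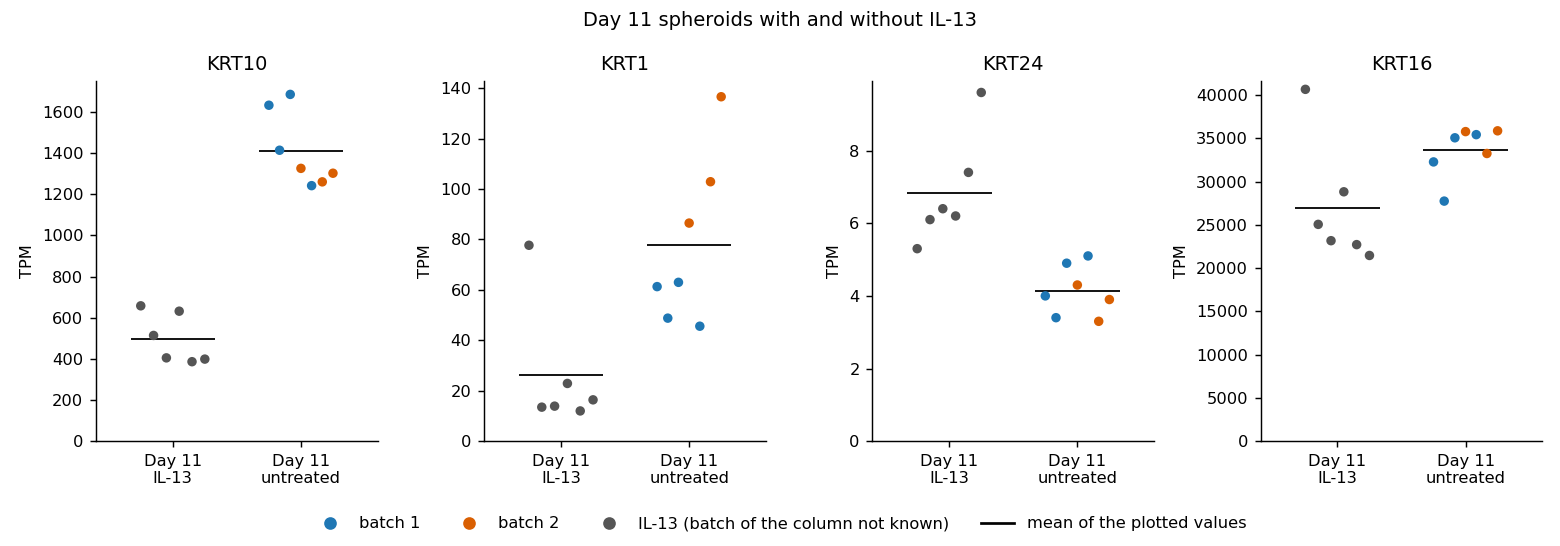
TPM of KRT10, KRT1, KRT24 and KRT16 in each day 11 library, with IL-13 on the left and untreated on the right of each panel. Points are libraries and bars are means. The IL-13 libraries hold 386.4 to 658.0 TPM of KRT10 and the untreated ones 1242.1 to 1685.6 TPM.

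The 10 keratins were also measured as shares of the summed TPM of the 53 keratin genes in the table, which removes the total of the library from the comparison. In 18 tests of shares and ratios, p-values came from exact 2-sided permutation of the libraries, within batches except for IL-13, and were adjusted over the 18. The stress keratins took 27.3% ± 5.9 of keratin TPM in D3 spheroids and 23.2% ± 0.6 in monolayers (SD, n = 9 and 10), which did not pass (adjusted p = 0.061, exact permutation). The difference was 0.50 points in batch 1 and 6.92 points in batch 2, and over both it was 3.71 points, or 2.32 to 4.85 with 1 library left out. Without D3 library 2, 7 or 8 it passed. Those libraries lay at 20.4% to 21.1%, below every monolayer, at 22.2% to 24.1%. Library 9 lay within the range of the monolayers, at 22.4%, and the other D3 libraries lay above it, at 31.2% to 33.7%. The stress keratins took 61.7% ± 0.6 in untreated day 11 spheroids, above every D3 library (adjusted p = 5.7e-04, exact permutation). With IL-13 they took 58.3% ± 2.5, and the difference of -3.41 percentage points from untreated spheroids passed (adjusted p = 0.016, exact permutation), although the ranges of 55.9% to 63.0% with IL-13 and 60.8% to 62.8% without overlapped. Against untreated libraries of batch 1 alone, the difference of -3.55 points did not pass (adjusted p = 0.059, exact permutation).

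KRT1, KRT10 and KRT2 together took 0.296% ± 0.220 of keratin TPM in D3 spheroids and 0.120% ± 0.010 in monolayers. This passed over both batches (adjusted p = 0.033, exact permutation) and not within either, with differences of 0.051 points in batch 1 and 0.275 points in batch 2. The rise was not shared by all D3 libraries. Libraries 2, 7, 8 and 9 held 0.060% to 0.090%, below every monolayer, at 0.104% to 0.132%. The other D3 libraries held 0.395% to 0.556%, so none lay near the mean. KRT1, KRT10 and KRT2 took 0.959% ± 0.193 in untreated day 11 spheroids, with no overlap with D3 (adjusted p = 9.2e-04, exact permutation). With IL-13 they took 0.359% ± 0.045, below every untreated library. The difference was -0.600 points, with p = 5.8e-04, the smallest the permutations of 6 against 7 libraries can give (adjusted p = 9.5e-04, exact permutation).

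**Figure D4:**
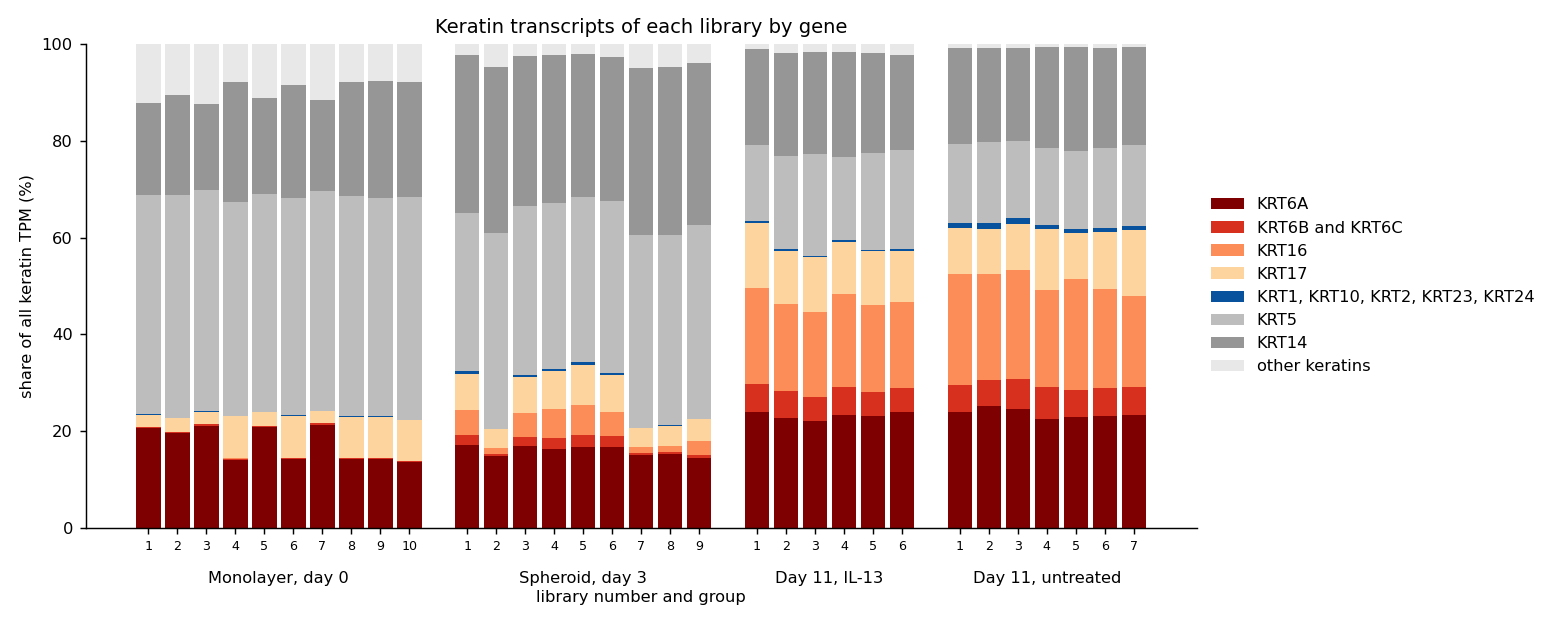
Share of keratin TPM by gene in each library, in percent, with libraries numbered within their groups on the horizontal axis. Red and orange are the stress keratins, blue the other members and grey the remaining keratins. The stress keratins fill 61.7% of keratin TPM in untreated day 11 spheroids and 23.2% in monolayers.

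Keratins made up 3.03% ± 0.30 of all TPM in monolayers, 10.3% ± 2.4 in D3 spheroids, 14.5% ± 3.1 with IL-13 and 15.8% ± 2.1 in untreated day 11 spheroids (SD). The stress keratins alone were 0.705% of all TPM in monolayers, 2.93% in D3 spheroids, 8.54% with IL-13 and 9.76% in untreated day 11 spheroids. Without mitochondrial genes, all 9 keratins kept an adjusted p under 0.05 as higher in D3 spheroids than in monolayers, and 8 of these 9 did so in untreated day 11 against D3 spheroids. The exception was KRT24, at 0.57 (adjusted p = 0.18), while KRT2, which the lower totals brought past the filter, passed in both. Of the 12839 genes tested in this setting, 1675 were called higher and 8455 lower in the first comparison. In the second, 1718 were called higher and 8326 lower. The limits that the filter sets on KRT1, KRT23 and KRT24 hold here too. KRT2 was at 0 in all monolayers, so its call against them is no support either. The sizes on day 11 against day 3 were smaller, at 0.60 for KRT6A (1.20 with these genes), 1.04 for KRT17 (1.64) and 2.94 for KRT16 (3.54), with the median of all genes at -0.49, against -0.02 with them. With library weights the rises in that comparison were 0.48 for KRT6A, 1.73 for KRT6B and 1.26 for KRT1.

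The members of each type moved unequally. The log2 ratio of KRT6B to KRT6A was -4.46 ± 1.26 in D3 spheroids and -6.67 ± 0.29 in monolayers, a difference of 2.15 after the batch strata (adjusted p = 2.8e-04, exact permutation). It was -2.40 ± 0.12 in untreated day 11 spheroids (adjusted p = 9.2e-04 against D3, exact permutation) and -2.50 ± 0.08 with IL-13, which did not pass (adjusted p = 0.087, exact permutation). KRT6A was 98.6% of the summed KRT6 TPM in monolayers, 92.5% in D3 spheroids, 81.2% with IL-13 and 80.0% in untreated day 11 spheroids. The log2 ratio of KRT16 to KRT17 was -0.90 ± 0.57 in D3 spheroids and -6.76 ± 0.17 in monolayers (adjusted p = 2.8e-04, exact permutation). It was 1.00 ± 0.34 in untreated day 11 spheroids (adjusted p = 5.7e-04 against D3, exact permutation), so KRT16 was the higher of the pair in all 7 libraries. With IL-13 the ratio was 0.70 ± 0.10, and the difference of -0.30 from untreated spheroids did not pass (adjusted p = 0.071, exact permutation). Against untreated libraries of batch 1 alone, it was -0.56 (adjusted p = 0.0071, exact permutation).

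The summed KRT6 level was 4.87 ± 3.42 times the sum of KRT16 and KRT17 in monolayers and 1.99 ± 0.71 times in D3 spheroids (SD). It was 0.960 ± 0.042 times with IL-13 and 0.917 ± 0.035 times in untreated day 11 spheroids. In batch 1 the monolayers lay at 7.02 to 8.65 times and the D3 libraries at 1.33 to 2.90 times. In batch 2 the D3 libraries, at 1.32 to 2.92 times, lay on both sides of the monolayers, at 1.63 to 1.68 times. Over all 53 keratins, the type II sum was 1.73 times the type I sum in monolayers, 1.19 times in D3 spheroids, 0.930 times with IL-13 and 0.853 times in untreated day 11 spheroids. The log2 ratio of KRT1 to KRT10 was -4.25 ± 0.65 in untreated day 11 spheroids and -3.83 ± 0.70 in D3 spheroids, which did not pass (adjusted p = 0.29, exact permutation). With IL-13 it was -4.52 ± 0.74 (adjusted p = 0.50 against untreated, exact permutation). KRT1 thus stayed far below KRT10 in every spheroid group.

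**Figure D5:**
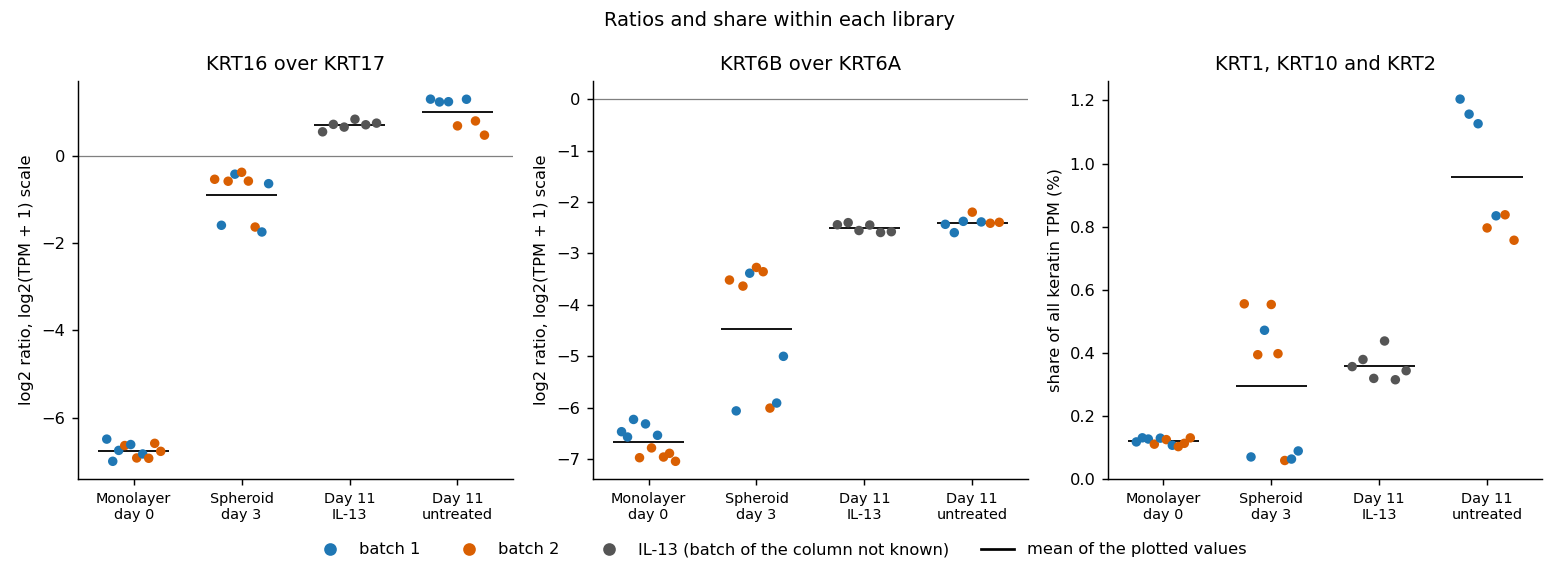
Log2 ratio of KRT16 to KRT17, log2 ratio of KRT6B to KRT6A, and the percent of keratin TPM held by KRT1, KRT10 and KRT2, in each library by group. Points are libraries coloured by batch and bars are means. KRT16 stands below KRT17 in all D3 spheroids and monolayers and above it in all day 11 libraries.

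The keratins outside the 10 moved in both directions. Of 43 other keratins in the table, 16 were tested, and 8 were higher and 4 lower in D3 spheroids than in monolayers. Of all genes, 12.7% were higher and 68.2% lower there. KRT4, at 0 in all monolayers, and KRT13, at most at 0.4 TPM in them, passed the filter through spheroids alone. Their calls against monolayers are no support. In untreated day 11 against D3 spheroids 7 were higher and 6 lower, where 33.6% of all genes were higher and 35.8% lower. KRT80, a type II keratin of differentiated epithelium, rose to 115 ± 12.7 TPM on day 11, against 4.67 ± 4.03 TPM on day 3. KRT13, the esophageal suprabasal keratin, fell to 11.4 ± 2.9 TPM on day 11, against 67.1 ± 34.6 TPM on day 3, and KRT15, a keratin of basal cells, fell to 110 ± 22.8 TPM, against 431 ± 39.6 TPM. With IL-13, KRT4 rose to 761 ± 194 TPM, against 15.6 ± 2.1 TPM without, and KRT13 rose to 220 ± 63.0 TPM, against 11.4 ± 2.9 TPM. The changes were 5.59 ± 0.35 and 4.15 ± 0.31 (adjusted p = 7.6e-14 and 3.7e-12). The esophageal pair was thus higher with IL-13 while KRT10 was lower. Of the 16 other keratins, 6 were higher, the pair among them, and 3 lower, where 39.2% of all genes were higher and 8.49% lower.

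Genes of keratinocyte activation and wounding, 32 of them tested, were mostly higher with time. In D3 spheroids against monolayers 20 were higher and 9 lower, where 12.7% of all genes were higher and 68.2% lower. The median change was 1.24, against -0.44 over all genes. Some genes of the list, such as SPRR3, at most at 0.7 TPM in monolayers, passed the filter through spheroids alone. Calls of such genes against monolayers are no support, and their number in the list was not counted. SPRR1A, a cornified envelope precursor, rose to 2620 ± 2219 TPM in D3 spheroids, against 0.77 ± 1.76 TPM in monolayers, while CXCL1, a neutrophil chemokine, fell to 1.50 ± 0.56 TPM, against 61.0 ± 18.7 TPM. In untreated day 11 against D3 spheroids 29 were higher and none lower by limma at an adjusted p under 0.05, with a median of 2.35. Of all genes, 33.6% were higher and 35.8% lower at that threshold. The counts of the list were the same at an unadjusted p under 0.05. With IL-13, 8 were higher and 5 lower, where 39.2% of all genes were higher and 8.49% lower. The median was -0.09, against 0.19 over all genes. SERPINB4, a serine protease inhibitor, rose to 619 ± 128 TPM with IL-13, against 4.24 ± 1.41 TPM without. IL1B, an inflammatory cytokine, fell to 33.8 ± 6.9 TPM with IL-13, against 69.8 ± 13.3 TPM without.

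Of 25 tested genes of epidermal suprabasal differentiation, 21 were higher and 1 lower in D3 spheroids than in monolayers, with a median of 1.50, where 12.7% of all genes were higher and 68.2% lower. SBSN, at most at 0.4 TPM in monolayers, and SLURP1, at 0 in all of them, passed the filter through spheroids alone. Calls of such genes against monolayers are no support, and their number in the list was not counted. In untreated day 11 against D3 spheroids 23 were higher and 1 lower, with a median of 2.81, where 33.6% of all genes were higher and 35.8% lower. SBSN, a secreted suprabasal protein, rose to 1486 ± 194 TPM on day 11, against 93.3 ± 78.9 TPM on day 3. With IL-13, 2 were higher and 11 lower, with a median of -0.60 against 0.19 over all genes, of which 39.2% were higher and 8.49% lower. IVL, a cornified envelope protein, fell to 87.6 ± 50.5 TPM with IL-13, against 446 ± 80.4 TPM without (-2.33 ± 0.45, adjusted p = 1.2e-04), and CDSN, an adhesion protein of corneodesmosomes, fell to 13.0 ± 18.7 TPM, against 144 ± 100 TPM. TGM3, an epidermal transglutaminase, rose to 16.5 ± 3.6 TPM with IL-13, against 5.43 ± 1.71 TPM.

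Of 27 genes known as regulators of these keratins, 8 were higher and 15 lower in D3 spheroids than in monolayers, with a median change of -0.22, where 12.7% of all genes were higher and 68.2% lower, with a median of -0.44. In untreated day 11 against D3 spheroids 14 were higher and 3 lower, with a median of 0.69, where 33.6% of all genes were higher and 35.8% lower, with a median of -0.02. ZNF750, a transcription factor of terminal epidermal differentiation, rose to 104 ± 30.8 TPM on day 11, against 17.3 ± 11.6 TPM on day 3. It was listed at 0 in all monolayers and passed the filter through spheroids alone, so its call against monolayers is no support. OVOL1, a zinc finger factor of differentiating keratinocytes, rose to 83.5 ± 6.5 TPM on day 11, against 6.34 ± 3.14 TPM on day 3. With IL-13, 2 were higher and 4 lower, with a median of -0.06, where 39.2% of all genes were higher and 8.49% lower. OVOL1 fell to 49.1 ± 6.8 TPM with IL-13, against 83.5 ± 6.5 TPM without. FOSL1, an AP-1 subunit, fell to 16.8 ± 4.7 TPM, against 36.5 ± 12.0 TPM. TP63, the transcription factor of basal keratinocytes, rose to 21.0 ± 3.5 TPM with IL-13, against 11.8 ± 0.8 TPM without.

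Across all 32 libraries, which share their groups and the D3 split, the genes most like each keratin were found by Pearson correlation of log2(TPM + 1), given as a description. For KRT16 they were SPRR1B, CRABP2 and RRAD (0.996, 0.995 and 0.994). For KRT6A they were S100A14, FABP5 and GJA1 (0.990, 0.990 and 0.989). For KRT10 they were PLA2G4E, PGLYRP4 and SPRR2E (0.991, 0.985 and 0.981), and for KRT1 the first was CALML5 (0.959). Among the keratins themselves, KRT6B and KRT6C correlated at 0.993 and KRT1 and KRT10 at 0.972. As deviations from the group means, KRT1 and KRT10 correlated at 0.938, KRT16 and KRT17 at 0.918, and KRT6A and KRT16 at 0.25. These deviations keep the batch difference and the D3 split. Monolayers of batch 2 held less KRT6A and more KRT16 than those of batch 1, while both genes stood in the same D3 sets. The part of these in the correlations was not tested.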

How the data were processed

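Total RNA of 32 libraries was sequenced. The authors deposited 1 table of TPM values for 19345 genes, rounded to 1 decimal, in which all libraries sum to nearly the same total. Reads were placed on hg38, per the submitters' processing notes, and no aligner or quantifier is named in the sources used here. With TPM alone, counting error is unknown and precision rests on the spread between libraries. One part of the culture protocol is not reported here.

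The scale was log2(TPM + 1). The 12221 genes reaching 1 TPM in 6 or more libraries were fitted in limma 3.58.1 (R 4.3.3) with group, batch and an intensity trend in all 32 libraries, with Benjamini-Hochberg adjustment and a 0.05 threshold, and the fit was tested on simulated data. Shares and ratios were computed in Python 3.11.15, and the 2 tests of KRT1 to KRT10 against monolayers were left out, since KRT1 is listed at 0 there. The 6 IL-13 columns matched the group only and each carried a batch 2 share of 1 in 6. Library numbers are column numbers. No 2 libraries were alike enough to be 1 library. Replicate numbers did not pair the libraries. Named genes outside the 10 keratins were the 2 largest rises and falls of each list, of which a selection is given, and the 3 nearest genes by correlation. The members and lists were chosen with earlier results of these data known. Alternatives were scaling, filter, pseudocount, batch, weights, left-out libraries and a replicate block. Coordinates and coding sequences are from GENCODE 29.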

Additional observations from a re-analysis of the deposited data

Results flagged for a closer look

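Within the groups, 55 sets of libraries were examined for a value far from the rest of its group, and 6 were found, all in library 1 of the IL-13 group. Chance alone gives about 1 such value in 20 groups, and the 6 are from the same library. Library 1 had 49440.8 TPM of KRT6A, where the other 5 had 28828 to 34740.1 TPM. It had 9101.8 TPM of KRT6B, where the others had 4833.6 to 6372 TPM, and 27842.1 TPM of KRT17, where the others had 12801.8 to 16157.1 TPM. It had 77.7 TPM of KRT1, where the others had 12.0 to 22.9 TPM, and 0.9 TPM of KRT2, where the others had 0.1 to 0.2 TPM. Its log2 ratio of KRT1 to KRT10 was -3.07, where the others had -5.15 to -4.52. KRT10 was not among them, at 658.0 TPM against a range of 386.4 to 658.0 TPM in the group. Library 1 also lay apart on the first principal component of all genes, at 78.2, where the other IL-13 libraries lay at 49.4 to 56.7. The batch of this library is not known, and its part in these values was not tested.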

How the results depend on the processing

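Calls of the 9 tested keratins held in the first 3 comparisons under the alternatives tried, except KRT24 in untreated day 11 against D3 spheroids and single calls within 1 batch. In the main fit with IL-13, 47.6% of all genes were called, so no excess can be read from the counts of keratins that follow. With IL-13 the count of keratins called, 1, became 3 with a pseudocount of 5, with only the day 11 groups, with library weights and without D3 libraries 4 and 7. It became 2 with no filter and without mitochondrial genes, where the added call was KRT2, which the filter used leaves out, and 2 with no batch term and without IL-13 library 1, where it was KRT1, and ranged from 1 to 2 with each library left out. The stress keratin share in D3 spheroids against monolayers passed when labels were permuted over both batches (4.03 points, exact permutation) and ranged from 2.32 to 4.85 with each library left out, passing without D3 library 2, 7 or 8. The share with IL-13 was -3.55 points without untreated batch 2 libraries and did not pass. The KRT1, KRT10 and KRT2 share in D3 spheroids was 0.051 points in batch 1 and 0.275 in batch 2, neither passing, and 0.113 to 0.205 with each library left out, lost without D3 library 1, 3, 4, 5 or 6. The KRT16 to KRT17 difference with IL-13 passed at -0.56 without untreated batch 2 libraries, at -0.53 also without IL-13 library 1, and ranged from -0.39 to -0.25 with each left out, passing without untreated library 7. The KRT6B to KRT6A difference with IL-13 ranged from -0.14 to -0.069, passing without untreated library 2. The KRT1 to KRT10 difference between untreated day 11 and D3 spheroids turned to 0.016 with a pseudocount of 0.1, passed at -0.90 with 5 and at -0.26 without D3 libraries 4 and 7, and ranged from -0.42 to -0.13, passing without D3 library 7. With IL-13 it turned to 0.23 without untreated batch 2 libraries. Other differences with IL-13 also turned in sign. KRT23 turned to 0.043 (pseudocount 0.1), 0.085 (day 11 groups only), 0.00056 (without D3 libraries 4 and 7), 0.18 (without untreated batch 2 libraries) and 0.029 (also without IL-13 library 1), and ranged from -0.19 to 0.064. KRT17 turned to -0.030 (median-of-ratios), -0.050 (no batch term), -0.085 (weights) and -0.091 (without untreated batch 2 libraries and IL-13 library 1). KRT16 ranged from -0.22 to 0.0068 with each left out, and passed at -0.59 with weights. The cause was not tested. Median-of-ratios scaling moved the median of all genes from -0.44 to -0.005 in D3 against monolayers, from -0.48 to 0.001 in untreated day 11 against monolayers and from 0.19 to 0.001 with IL-13. The split of calls became 4064 higher and 4052 lower (main 1556 and 8339), 4916 and 4902 (2561 and 7765), and 2362 and 2515 (4785 and 1037). Without mitochondrial genes it was 1718 and 8326 in untreated day 11 against D3 spheroids (main 4102 and 4370). Replicate numbers are shared by the first 3 comparisons, but same-numbered libraries correlated above 0.1 in 4 of 9, 2 of 7 and 0 of 7 pairs. A replicate block gave 9927, 8573 and 10277 genes called and changed 1 keratin call, KRT24 in untreated day 11 against D3 spheroids (0.60, adjusted p = 0.13). No paired analysis was possible for IL-13 because the groups share no numbers. Depth is unknown, so what it limits could not be computed.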
